A study of Mus musculus with 10 samples.

Results

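This account covers 8 genes best known from lymphocytes and cytotoxic cells, measured in murine leukaemia cells of myeloid type. They are Nkg7, Gzmb and Prf1 of the cytotoxic granule, the surface receptors Cd96, Cd244, Cd7 and Il7r, and Ctla2a, a protease inhibitor. The genes were chosen by earlier results of the shRNA against vector contrast on these same arrays. Their shRNA minus control differences are therefore given as a description, with no p-value for any member. Counts of members called by the fit over all genes are given for completeness, and nothing is read from them. All probe sets that the platform annotation assigns to a single one of these symbols were taken. That gave 11 probe sets for 8 of the 18193 genes measured, with Cd244 listed under its current symbol Cd244a. A further probe set that carries the symbols of both Ctla2a and Ctla2b was not used.

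The cells were the mouse line 4166, driven by the fusion of Mll with AF9. One group of 5 samples received a lentivirus with an shRNA against Meis1, a homeodomain transcription factor of leukaemic and normal blood progenitors. The other group of 5 received the empty lentiviral vector. Both groups were selected with puromycin, collected 48 h after transduction, and grown in IMDM with 15% serum and 2 ng/ml interleukin 3. All 10 arrays come from a single leukaemia, so they say nothing of differences between leukaemias, and whether the 5 samples of a group were separate cultures is not given. Samples were paired by number, per the labels. Levels are RMA intensities of Affymetrix mouse arrays, and differences are on the log2 scale, shRNA minus control.

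Cytotoxic lymphocytes kill by releasing granules. Perforin, the product of Prf1, opens the target's membrane, and granzymes such as that of Gzmb enter and start cell death, while Nkg7 is a granule membrane protein needed for granule release. Cd96 and Cd244 are receptors that read ligands on neighbouring cells, Cd96 binding the nectin-like protein encoded by Pvr and Cd244, also called 2B4, binding Cd48. Outside lymphocytes, CD96 has been described on leukaemic stem cells of human acute myeloid leukaemia, and Cd244 on multipotent progenitors of the mouse. Ctla2a encodes a small protein resembling the propeptide of cathepsins, first found in activated T cells, that inhibits cysteine proteases. Il7r encodes the interleukin 7 receptor chain that early lymphoid cells depend on, and Cd7 is an early T and NK cell antigen in the human.

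Where the promoters of the 4 well-measured genes lie, and how near Ctla2a stands to its relative Ctla2b, is shown here because these are the 4 members with a signal above background and, with Ctla2b, the ones the results turn on. The sequences are RefSeq windows of 300 bases on GRCm38.p6, running from 250 bases before a transcript start to 50 after it, each written along its gene's own strand. Capitals mark the MEIS core TGACAG, the PBX-HOX letters TGATNNAT, the RUNX letters TGTGGT or the ETS letters CCGGAA, on either strand.
Nkg7, chr7:43436888-43437187, plus strand: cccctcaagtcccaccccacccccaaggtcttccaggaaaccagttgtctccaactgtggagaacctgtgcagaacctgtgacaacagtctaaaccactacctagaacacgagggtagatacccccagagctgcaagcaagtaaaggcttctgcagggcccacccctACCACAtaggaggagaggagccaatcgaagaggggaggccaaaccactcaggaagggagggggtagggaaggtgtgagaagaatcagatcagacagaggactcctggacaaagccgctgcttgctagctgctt
Cd96, chr16:46120199-46120498, minus strand: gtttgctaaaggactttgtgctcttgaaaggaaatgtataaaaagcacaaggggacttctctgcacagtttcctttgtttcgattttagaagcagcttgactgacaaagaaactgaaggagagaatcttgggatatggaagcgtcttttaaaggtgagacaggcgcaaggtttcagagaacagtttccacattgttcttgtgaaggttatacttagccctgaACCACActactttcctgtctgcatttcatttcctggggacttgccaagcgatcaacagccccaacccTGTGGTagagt
Cd244a, chr1:171558943-171559242, plus strand: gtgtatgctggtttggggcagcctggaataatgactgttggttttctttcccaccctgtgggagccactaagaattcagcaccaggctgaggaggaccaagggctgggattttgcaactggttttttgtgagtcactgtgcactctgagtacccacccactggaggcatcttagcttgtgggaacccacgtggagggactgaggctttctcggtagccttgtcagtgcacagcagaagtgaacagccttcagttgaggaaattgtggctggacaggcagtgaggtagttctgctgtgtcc
Ctla2a, chr13:60936517-60936816, minus strand: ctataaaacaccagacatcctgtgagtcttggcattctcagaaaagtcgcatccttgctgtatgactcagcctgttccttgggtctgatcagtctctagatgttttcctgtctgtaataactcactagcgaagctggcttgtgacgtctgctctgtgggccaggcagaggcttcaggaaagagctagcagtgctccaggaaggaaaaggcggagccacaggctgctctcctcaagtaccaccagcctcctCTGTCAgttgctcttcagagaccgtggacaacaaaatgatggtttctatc
Ctla2b, chr13:60897398-60897697, minus strand: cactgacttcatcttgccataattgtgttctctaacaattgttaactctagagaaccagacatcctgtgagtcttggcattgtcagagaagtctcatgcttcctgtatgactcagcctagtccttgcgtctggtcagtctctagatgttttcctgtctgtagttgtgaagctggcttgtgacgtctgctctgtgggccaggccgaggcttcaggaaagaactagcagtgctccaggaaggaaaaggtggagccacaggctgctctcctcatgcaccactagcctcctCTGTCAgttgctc

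The RUNX letters stood once in the Nkg7 window, starting 83 bases before the start (position -83), and at positions -28 and 39 in the Cd96 window. Of all 32851 RefSeq windows of this length, 16.8% hold these letters. Members at background, whose windows are not printed, held them too, at -93 and -34 in Gzmb, -130 in Prf1 and 3 in Il7r. The MEIS core stood in the printed Ctla2a window at position 0 and in the Ctla2b window at position 37, against 19.2% of all windows. It also stood at -186 in the window of Prf1, at background. The motifs are thus not particular to the genes that fell. Ctla2a has another annotated start, and its window from 60936576 to 60936875 holds none of the 4 motifs. No match overlapped another. The Cd244a window held none of the 4 motifs, of which TGATNNAT occurs in 8.85% and CCGGAA in 14.9% of all windows. The printed Ctla2a window and the Ctla2b window shared 233 of 255 aligned bases, 91.4%. This concerns the promoter windows, and whether a probe set for either gene also reads the other's transcript was not tested.

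The 8 genes fell into a measured group and an unmeasured group. A list of 22 genes of liver, muscle, nerve, eye and testis served as a guide to background. Of these, 21 had mean log2 levels from 1.71 to 3.21, and the other was Nefh at 7.04, set aside after its value was seen. Gzmb, Prf1, Cd7 and Il7r lay at or below the top of that range in every probe set, with mean log2 levels of 2.26 for Gzmb, 2.39 and 2.13 for Prf1, 1.49 for Cd7, and 2.11 and 2.09 for Il7r. Nkg7, Cd96, Ctla2a and Cd244a lay above it. Levels up to 3.21 are called the background range here. The cells thus gave signal for the granule release protein Nkg7 while the granule's killing proteins were at background.

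**Figure D1:**
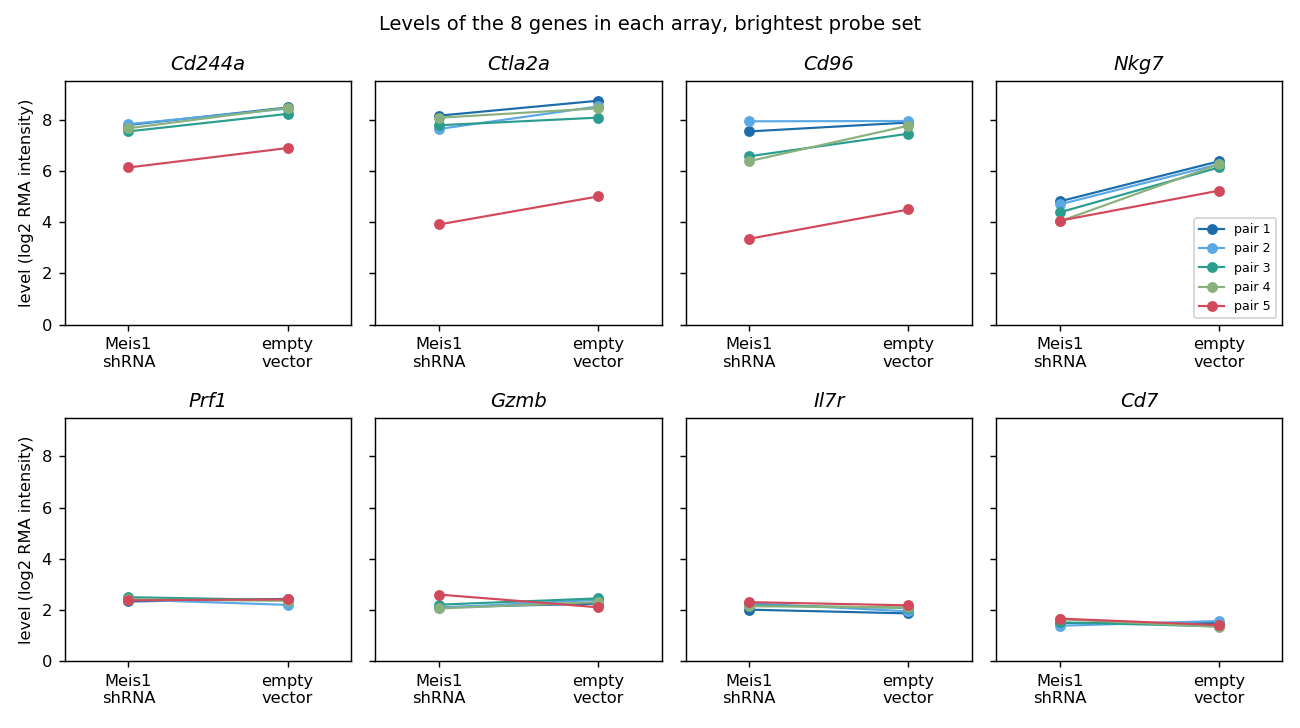
Level of each gene in each array (log2 RMA intensity, brightest probe set), with Meis1 shRNA left of empty vector and a line joining each pair. Cd244a, Ctla2a, Cd96 and Nkg7 were lower with the shRNA in all 5 pairs, pair 5 (red) was the lowest for all 4 of them in the vector arrays, and Prf1, Gzmb, Il7r and Cd7 stayed between 1.34 and 2.61.

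Before the members' values, the state of the arrays bears on them. Meis1 itself, by its bright probe set 1450992_a_at, averaged 165 ± 40.2 with the shRNA and 346 ± 56.3 with the vector (SD, n = 5 each), lower in 5 of 5 pairs. Pair 5 stood apart from the other pairs for a small set of genes. Array 2 of the shRNA group, which held 145 genes more than 1 log2 unit below the mean of the other 4 arrays of its group, and array 5 of it, with 132, stood beside 8 to 42 in the others. In vector array 5 the number was 150 of 18193 genes, 0.824%, beside 18 to 43 in the other vector arrays. RNA integrity was read from the Gapdh and actin control probe sets, as 3 prime over 5 prime signal. It was 0.33 to 0.39 on the log2 scale in the shRNA arrays. It was 0.20 to 0.28 in vector arrays 1 to 4 and 0.37 in vector array 5. In the fit with that measure added as a term, the changes were -1.16 for Nkg7, -0.49 for Cd96, -1.01 for Ctla2a and -0.66 for Cd244a. The measure itself differed between the groups, so that fit cannot separate RNA integrity from the shRNA well. It called 0 of the 8 members and 2 of all 18193 genes. Since the members were chosen by this contrast, the negative signs are no separate support.

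Nkg7 showed the widest gap between the groups. Its probe set 1450753_at read 28.0, 25.8, 20.8, 16.3 and 16.6 in shRNA arrays 1 to 5, against 82.7, 76.3, 70.0, 76.1 and 37.4 in vector arrays 1 to 5. The groups did not overlap, with the highest shRNA array below the lowest vector array, and vector array 5 was the lowest of its group. The mean was 21.5 ± 5.29 with the shRNA and 68.5 ± 18 with the vector (SD, n = 5 each). The pair differences were -1.56, -1.56, -1.75, -2.22 and -1.17, with a mean of -1.65 ± 0.38 (SD over 5 pairs), a 3.15-fold lower level. Pair 5 had the smallest of these differences, and over pairs 1 to 4 the mean was -1.77 ± 0.31. With 16 added to every intensity before the logarithm the change was -1.15, as adding a constant shrinks changes of dim genes. Nkg7 was the only one of the 8 whose groups did not overlap, and of all genes 3.45% had every shRNA array below every vector array.

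Cd244a was lower by almost the same factor in each pair. Its probe set 1449991_at read 220.8, 225.8, 185.7, 202.1 and 70.0 with the shRNA, against 354.3, 343.6, 298.0, 351.6 and 118.4 with the vector. Pair 5 was the lowest in both groups, so the groups overlapped. Over pairs 1 to 4 the highest shRNA array, 225.8, lay below the lowest vector array, 298.0. Gzmb, at background, also had no overlap over pairs 1 to 4, and the share of all genes was not computed. The pair differences of Cd244a lay between -0.80 and -0.61 and had a mean of -0.71 ± 0.07 (SD over 5 pairs), 1.63-fold lower. Pair 5, at -0.76, sat within the range of the others although its levels were 2.97-fold lower with the shRNA and 2.84-fold lower with the vector than the mean of the other arrays. The second probe set, 1426120_a_at, read 15.1 to 46.6 with the shRNA and 20.6 to 58.6 with the vector. It was likewise lower in all 5 pairs, but by less, with a mean of -0.39 ± 0.14. Probe sets of the array differ in the transcript forms they read, and their levels are not set against each other here.

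Ctla2a was high in 4 pairs and far lower in pair 5. Its probe set 1448471_a_at read 283.9, 198.0, 219.2, 268.3 and 15.0 with the shRNA, against 425.0, 364.3, 269.2, 346.2 and 32.0 with the vector. The shRNA array of pair 5 was 16-fold below the mean of shRNA arrays 1 to 4, and the vector array of that pair was 10.8-fold below the mean of vector arrays 1 to 4. Within pairs the shRNA array was lower 5 times of 5, by -0.58, -0.88, -0.30, -0.37 and -1.09. The mean was -0.64 ± 0.34 (SD over 5 pairs), 1.56-fold lower, and -0.53 ± 0.26 over pairs 1 to 4. The groups overlapped widely because of pair 5, and slightly within pairs 1 to 4, where shRNA array 1 exceeded vector array 3.

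Cd96 differed most from pair to pair. Its probe set 1419226_at read 185.5, 243.9, 94.8, 83.1 and 10.2 with the shRNA, against 235.9, 245.9, 174.4, 216.8 and 22.5 with the vector. Pair 5 again read far below the rest, by 13.5-fold with the shRNA and 9.60-fold with the vector. Its shRNA array, at 3.35 on the log2 scale, was close to the background limit of 3.21, so the size of these gaps is uncertain. The pair differences were -0.35, -0.01, -0.88, -1.38 and -1.14, smaller in pairs 1 and 2 than in pairs 3 to 5. In pair 2 the arrays were nearly equal, and the gap was widest in pair 4. Some listed genes, Elane and Nfil3 among them, also differed between arrays 1 and 2 and arrays 3 to 5 in both groups. Whether that split bears on Cd96 was not tested. The mean of the 5 differences was -0.75 ± 0.57 (SD), 1.69-fold lower, so the spread between pairs was almost as large as the mean. The groups overlapped also without pair 5.

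**Figure D2:**
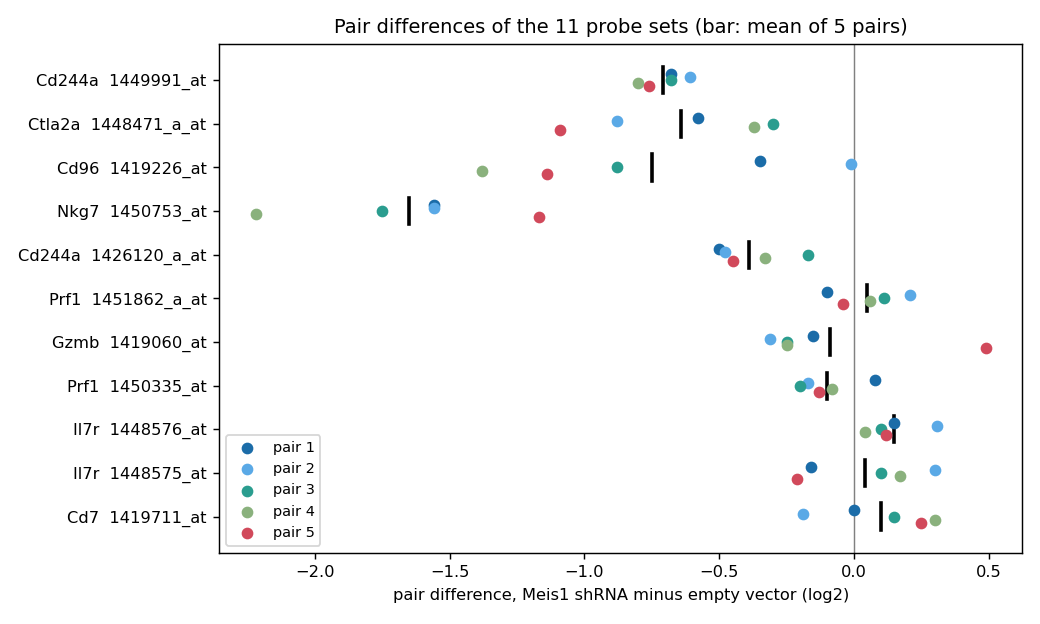
Difference within each pair, Meis1 shRNA minus empty vector (log2), for the 11 probe sets, brightest at the top, with points coloured by pair and a black bar at the mean of 5 pairs. Both Cd244a probe sets, Ctla2a, Cd96 and Nkg7 lie below 0 in every pair, from -2.22 to -0.01. The other 6 probe sets, at background, lie between -0.31 and 0.49, with Il7r 1448576_at above 0 in all 5 pairs.

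The remaining members gave no level to compare. Gzmb read 4.18 to 4.63 in shRNA arrays 1 to 4 and 6.09 in array 5. With the vector it read 4.77 to 5.49 in arrays 1 to 4 and 4.32 in array 5. All of these were at background. Prf1 read 5.05 to 5.67 with the shRNA and 4.61 to 5.42 with the vector in its brighter probe set, and 3.91 to 4.61 and 4.36 to 4.66 in the other. Il7r read 4.05 to 4.96 with the shRNA and 3.66 to 4.55 with the vector, and in its second probe set 3.66 to 4.74 and 3.82 to 4.85. Cd7 read 2.62 to 3.18 with the shRNA and 2.54 to 2.98 with the vector. Their mean differences lay between -0.10 and 0.15, and a decrease could not have been seen from levels this low. In bulk RNA a level in the background range may be no transcript, few cells with it or little RNA per cell. These cannot be told apart here.

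By counts, 4 of the 8 genes were lower with the shRNA in all 5 pairs, against 10.3% of all genes. Il7r, at background, was higher in all 5 pairs in its brighter probe set, and that share of all genes was not computed. The paired limma fit over all genes, with an adjusted p threshold of 0.05, placed 3 of the 8 among its lower calls (Nkg7, Ctla2a and Cd244a) and 0 among its higher calls. Of all genes it called 2.98% lower and 1.08% higher, 543 and 196 genes, or 382 and 309 after quantile normalization. Nothing is read from the members' count, since the genes were named with this contrast in view. Without the replicate block the fit called Nkg7 alone of the 8, and with the RNA integrity term it called 0 of the 8 (3 at an unadjusted limma p under 0.05). With that term, 1173 of all 18193 genes had an unadjusted limma p under 0.05. The median change of the 8 was -0.36, with 5 below 0, and that of all genes was 0.00.

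The low level of pair 5 was shared by the 4 measured genes but not to one degree. In vector array 5, 4 of the 8 genes (Nkg7, Cd96, Ctla2a and Cd244a) read more than 1 log2 unit below the mean of vector arrays 1 to 4, beside the 0.824% of all genes given above. Ctla2a, at -4.0, had the deepest such gap of all 18193 genes in the shRNA array of pair 5, and Cd96, at -3.75, the next. In the vector array Ctla2a ranked 2 at -3.44 and Cd96 ranked 4 at -3.26. Cd244a ranked 40 at -1.57 with the shRNA and 43 at -1.51 with the vector. Nkg7 ranked 1331 at -0.42 with the shRNA and 134 at -1.03 with the vector. These ranks describe a single pair and were looked up after its low levels were seen.

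**Figure D3:**
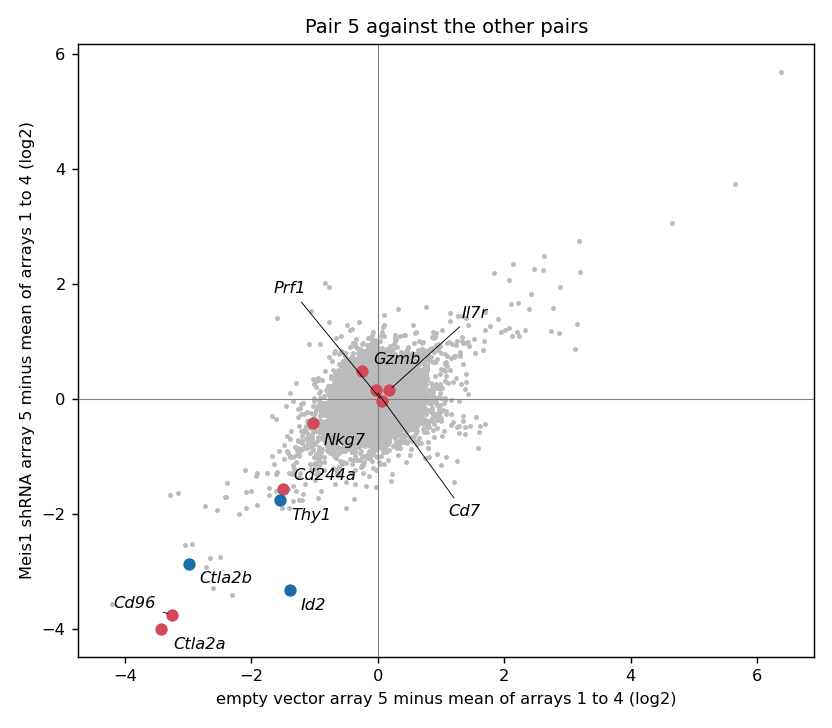
Level of each gene in pair 5 minus the mean of pairs 1 to 4 (log2), in the empty vector arrays (x) and the Meis1 shRNA arrays (y), with the 8 genes in red, Ctla2b, Thy1 and Id2 in blue and all genes in grey. Ctla2a (-4.0 with the shRNA, -3.44 with the vector) and Cd96 (-3.75 and -3.26) sit at the lower left edge, and Gzmb, Prf1, Cd7 and Il7r near the centre.

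Some granule genes of myeloid cells, Ctsg, Mpo and Prtn3 among them, were highest in pair 5 in both groups. Elane and Srgn were not, and Ctsc was lowest there, at 1619 with the shRNA and 1656 with the vector. Ctsg, encoding cathepsin G, read 11400 in shRNA array 5 and 4714 to 7112 in the other shRNA arrays, and 12900 in vector array 5 and 5353 to 8291 in the other vector arrays. Mpo, myeloperoxidase, read 12200 in shRNA array 5 and 8148 to 10300 in the others, and 13700 in vector array 5 and 9507 to 11500 in the others. Elane, neutrophil elastase, read 2465 in shRNA array 5 and 921.9 to 3000 in the others, and 3347 in vector array 5 and 1285 to 3671 in the others. The part of RNA integrity in the low levels of pair 5 was not tested. Meis1 read 140.2 in shRNA array 5 and 290.3 in vector array 5. These lie within and just below the range of the other arrays, which was 126.7 to 220.7 with the shRNA and 297.1 to 413.1 with the vector.

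Genes with the pattern most like each measured member over the 10 arrays were looked up among 1668 genes with a mean log2 level above 5 and an SD above 0.3. Arrays share their pair, and both groups enter, so a difference between the groups that 2 genes share raises r. The correlations are therefore descriptions only. Nkg7 was closest to Pex13, a peroxisomal import protein (Pearson r = 0.992), the long noncoding RNA Tug1 (0.985) and Hells, a chromatin remodeller (0.979). These stayed at 0.99, 0.99 and 0.98 over the 8 arrays of pairs 1 to 4, which still hold both groups. Pex13, Tug1 and Hells were also lower with the shRNA, with log2 changes of -0.94, -1.46 and -0.51. Cd96 was closest to Ninj1 (0.987), Thy1, a surface antigen of T cells and some progenitors (0.981), and the receptor Gpr171 (0.981), with 0.92, 0.91 and 0.88 over pairs 1 to 4. Cd244a was closest to Btnl9 (0.974), Bnip3 (0.962) and Ptger4, a prostaglandin E2 receptor (0.962), with 0.96, 0.95 and 0.85. Ctla2a was closest to Ctla2b (0.984), Homer2 (0.977) and the transferrin receptor relative Tfr2 (0.970). Over pairs 1 to 4 these were 0.89, 0.47 and 0.44, so the likeness of Ctla2a to Homer2 and Tfr2 rested on pair 5. Between members, Ctla2a and Cd96 had r = 0.950 over 10 arrays and 0.43 over pairs 1 to 4, while Nkg7 and Cd244a had 0.740 and 0.97.

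Other genes of the same pathways, and markers of other cell types, were taken from 15 lists with 178 measured genes besides the members. Of these, 7 passed the threshold lower and 2 higher, 3.93% and 1.12%, close to the shares of all genes. The passing genes were Stat5a, Ctla2b, Nfil3, Zbtb16, Cd28, Elane and Ptprc, which fell, and Lyst and Cstb, which rose. The median change of the 178 genes was 0.00, as for all genes. At an unadjusted limma p under 0.05 stood 36 of the 178, beside 3273 of all 18193 genes. In the limma fit with the RNA integrity term 0 of the 9 passed (adjusted p = 0.463 to 0.913), and it called 2 of all genes.

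Around the granule, 0 of 14 genes of granule contents passed (1 at an unadjusted limma p under 0.05). The list's median change was -0.01. Of the 14, 12 were in the background range, among them the other granzymes. Serglycin, the proteoglycan that packs granule proteins in lymphoid and myeloid cells, was bright, with Srgn at 11200 ± 875 with the shRNA and 12960 ± 602 with the vector (log2 change -0.21, adjusted p = 0.174). Ctsc, whose protease activates granzymes and neutrophil proteases, changed by -0.14 (adjusted p = 0.473). Of 12 genes of the release machinery, Lyst, a regulator of lysosome-related granules, rose by 0.57 (SE 0.12, adjusted p = 0.0391), and 11 did not pass. The Lyst call was lost when pair 1, 2, 3 or 4 was left out, with an adjusted p as high as 0.131, and when the block was dropped (0.276). It was also lost with the mean of probe sets (0.12) and with a pseudocount of 16 (0.0502). The dimmer probe sets of Lyst, at mean log2 levels of 3.6 and 3.31, changed by 0.36 and 0.16. Rab27a, Vamp8 and Lamp1, also of that list, had mean log2 levels above 10 in both groups and changes of -0.09, 0.01 and 0.02. Of the 12, 10 had a mean log2 level above 5, and the other 2, Stx11 at 3.10 and Sytl2 at 2.29, were in the background range.

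Of the relatives and targets of Ctla2a, the neighbouring gene Ctla2b fell. It read 143.3, 121.8, 79.7, 121.5 and 15.7 with the shRNA, against 225.5, 191.6, 132.1, 180.6 and 22.5 with the vector. It was lower in 5 of 5 pairs, with the same low pair 5 (log2 change -0.63, SE 0.08, adjusted p = 0.00431). Whether its probe set also reads Ctla2a was not tested, so it is not taken as a measurement separate from that of Ctla2a. Without the block its adjusted p was 0.761, as the spread between pairs then entered the error. Among 11 genes of this list, Cstb, an inhibitor of cathepsins, rose by 0.46 (SE 0.09, adjusted p = 0.0313), to 1491 ± 186 with the shRNA against 1079 ± 86.0 with the vector. It too was lost when pair 1, 2, 3 or 4 was left out, with an adjusted p as high as 0.132. The cathepsin genes Ctsz and Ctsb and the inhibitor Cst3 did not pass. The list's median change was 0.11.

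The partners of the receptors showed few changes. Of 12 genes of the SLAM family and its adaptors, to which Cd244 belongs, 0 passed (0 at an unadjusted p under 0.05), and the median change was -0.01. Cd48, the ligand of Cd244, read 343 ± 33.9 with the shRNA and 362 ± 14.5 with the vector (log2 change -0.08, adjusted p = 0.687). Of 7 nectin genes 0 passed (1 unadjusted), with a median of 0.17. Pvr, the ligand of Cd96, was at mean log2 levels of 4.85 with the shRNA and 4.56 with the vector (adjusted p = 0.282), and the other 6 were in the background range. The CD7 ligands Sectm1a and Sectm1b were at background, and 0 of the 2 passed (0 unadjusted).

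Of 12 genes of interleukin 7 signalling, Stat5a, a transcription factor activated by the receptors of interleukins 3 and 7, fell. It read 24.9, 15.3, 19.2, 18.6 and 17.3 with the shRNA, against 41.0, 46.3, 39.5, 57.0 and 32.2 with the vector. The groups did not overlap (log2 change -1.17, SE 0.15, adjusted p = 0.00453), and Stat5a kept its call whichever pair was left out and without the block. Its second probe set changed by -0.40. Crlf2, a receptor chain that pairs with that of Il7r to bind the cytokine TSLP, was bright at mean log2 levels of 9.49 with the shRNA and 9.51 with the vector (adjusted p = 0.947). Mcl1 and Pim1 did not pass, and the list's median was -0.06.

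Among 18 lymphoid transcription factors, Nfil3 and Zbtb16 fell and 16 did not pass, with a median of -0.03. Nfil3, needed for the development of NK cells, read 314.8, 318.2, 94.0, 154.6 and 137.6 with the shRNA, against 517.0, 546.8, 212.0, 260.6 and 206.6 with the vector. It was lower in 5 of 5 pairs (log2 change -0.80, SE 0.10, adjusted p = 0.00453). Zbtb16, the factor PLZF of innate-like lymphocytes and also of myeloid progenitors, read 45.4 to 80.7 with the shRNA and 65.4 to 120.5 with the vector (log2 change -0.68, SE 0.09, adjusted p = 0.00546). It was lower in 5 of 5 pairs, and its second brightest probe set changed by -0.80. Both kept their calls whichever pair was left out, though not without the block (adjusted p = 0.367 and 0.0856). Ikzf1, Ikzf2 and Runx3, all with mean log2 levels above 8, changed by -0.09, -0.10 and -0.26 (adjusted p = 0.641, 0.625 and 0.270).

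**Figure D4:**
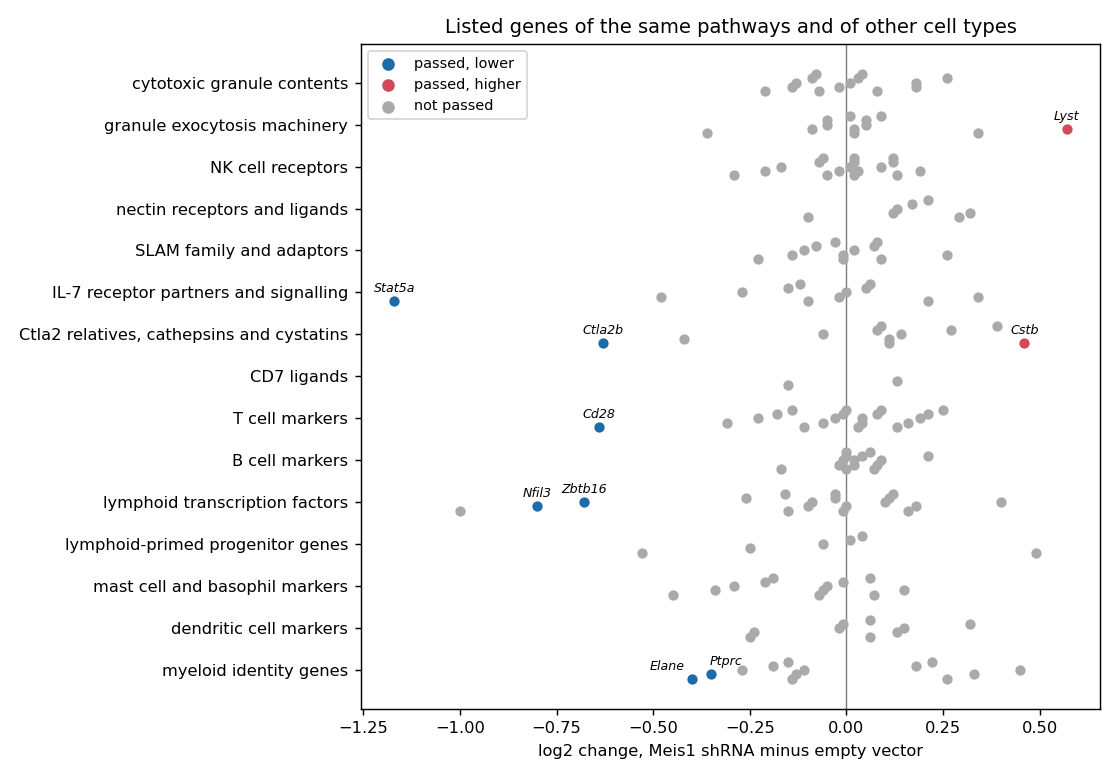
Log2 change, Meis1 shRNA minus empty vector, of each listed gene by its brightest probe set, in 15 lists, coloured by whether it passed an adjusted p of 0.05 in the paired limma fit. The 9 that passed are named, from Stat5a at -1.17 to Lyst at 0.57, and most lists hold none or 1.

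Markers of the cells that normally express the 8 genes were mostly at background. Of 17 NK cell receptor genes 15 were within the background range. The exceptions were Tyrobp and Hcst, adaptor genes of which Tyrobp is also used by myeloid cells, and 0 passed (1 unadjusted, median 0.02). Of 20 T cell genes 17 were within it, with Cd3e at mean log2 levels of 2.98 with the shRNA and 2.77 with the vector. The summed intensity of the T cell list was 374 to 1254 with the shRNA and 474 to 1339 with the vector. Most of that sum was Thy1, which read 256.3 to 1140 with the shRNA and 355.5 to 1219 with the vector, was lowest in pair 5 in both groups, and did not pass (log2 change -0.31, adjusted p = 0.127). Cd28, a costimulatory receptor, fell (log2 change -0.64, SE 0.11, adjusted p = 0.0175) at a level of 8.11 ± 2.22 with the shRNA and 12.5 ± 2.02 with the vector, close to background. The call was lost when pair 2, 3 or 4 was left out, with an adjusted p as high as 0.0854, and when the block was dropped (0.0795). Of 14 B cell genes 13 were within the range and 0 passed (0 unadjusted, median 0.02). Its brightest, Igll1, was at 4.14 with the shRNA and 4.11 with the vector.

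Other lists gave few calls. Of 6 genes of lymphoid-primed progenitors 0 passed (1 unadjusted), with a median of -0.03 and Flt3 at 4.23 with the shRNA and 4.48 with the vector. Of 12 mast cell and basophil genes, cells that also use Ctla2a and granzymes, 0 passed (3 unadjusted), with a median of -0.07. The exceptions to background were Mcpt8, a basophil protease, at mean log2 levels of 8.07 with the shRNA and 8.51 with the vector (adjusted p = 0.0952), and Gata2 at 5.00 and 5.34. Of 9 dendritic cell genes 0 passed (2 unadjusted), with a median of 0.06. In the check of the cell type, 11 of 13 myeloid identity genes had a mean log2 level above 5 and 0 of 13 were in the background range, with Mpo at 13.25 with the shRNA and 13.40 with the vector. Elane, neutrophil elastase, and Ptprc, the leukocyte antigen CD45, fell (log2 change -0.40 and -0.35, adjusted p = 0.0338 and 0.0379), and both calls were lost whichever pair was left out, with an adjusted p as high as 0.132 and 0.129. The list's median was -0.13. The transcripts of Nkg7, Cd96, Ctla2a and Cd244a were thus measured in bulk RNA with myeloid markers. In it the B cell list and most NK and T cell genes, Cd3e among them, were at or near background, while Thy1 was bright. Which cells held the 4 transcripts was not tested.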

How the data were processed

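The authors' deposited values are probe set intensities made with RMA, per the submitters' processing notes; no source used here gives its version or settings. RMA values are usually log2, so a linear scale, read from the values (1.295 to 32400), is an inference. RMA compresses large changes, and the number of arrays limits precision. All values were log2-transformed without a pseudocount. Of 45101 probe sets, 64 Affymetrix controls were left out. Of the rest, 34945 had 1 symbol, 932 several and 9160 none, and 34741 matched RefSeq GRCm38.p6 through Entrez identifiers. Each of 18193 genes was represented by its brightest probe set.

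Groups were compared by limma 3.58.1 in R 4.3.3 (lmFit, eBayes) with sample number as the blocking factor, two-sided, with Benjamini-Hochberg adjustment over all genes at 0.05. The pairing comes from the labels. Deviations from group means of same-numbered samples correlated at 0.310 to 0.600 over 11215 probe sets with a mean log2 above 5. The labels do not say whether replicates were separate cultures, so the spread behind each p-value may be technical. Figures used Python 3.11.15.

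Members and lists were chosen with earlier results of these data known. Genes named from a list were up to 4 that passed with the largest change and up to 3 of the brightest others; Id2 and the pair 5 gaps were added after their values were seen. The fit was tested on simulated data. List entries without a probe set of their own were not analysed here, and 196 entries gave 178 genes. Alternatives covered scaling, pseudocount, dim genes, moderation, probe sets, the block, RNA integrity and each pair left out.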

Additional observations from a re-analysis of the deposited data

Results flagged for a closer look

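Dixon's ratio picked out 10 of 33 sets of 5 values in the 11 probe sets (each group, and the pair differences), where chance gives about 1 in 20. The share over all probe sets was not computed, so the count is not read as a trait of these genes. Array 5 held 132 genes with the shRNA and 150 with the vector more than 1 log2 unit below the others of its group. On the log2 scale, 8 of the 10 were low values of pair 5 in measured members. With the shRNA, array 5 read 3.91 for Ctla2a beside 7.63 to 8.15 in the others, 6.13 for Cd244a beside 7.54 to 7.82, and 3.91 in the second Cd244a probe set beside 5.07 to 5.54. With the vector, array 5 read 5.00 for Ctla2a beside 8.07 to 8.73, 4.49 for Cd96 beside 7.45 to 7.94, 5.22 for Nkg7 beside 6.13 to 6.37, 6.89 for Cd244a beside 8.22 to 8.47, and 4.36 in the second Cd244a probe set beside 5.46 to 5.87. The sets are not independent, since genes share the arrays. For Gzmb, the shRNA array of pair 5 read 2.61 beside 2.06 to 2.21, and its pair difference was 0.49 beside -0.31 to -0.15, all at background.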

How the results depend on the processing

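The paired fit called 739 of 18193 genes, and the count was 2 with RNA integrity (3 prime over 5 prime signal) as a covariate, 1305 among genes with a mean log2 level above 5, and 1497 with trend and robust eBayes. Leaving out each pair in turn gave 243 to 929. With the covariate, 1173 of all genes had an unadjusted limma p under 0.05. Of the 178 listed genes 9 were called, against 2 without the replicate block, 0 with the covariate (13 at an unadjusted p under 0.05 by limma), 16 among the brighter genes, 23 with trend and robust eBayes, and 4 to 14 with each pair left out. Without pair 5 the count was 14, 7 lower and 7 higher, and 7 of the original 9 were among them. Of the 8 members 3 were called, against 1 without the replicate block and 0 with the covariate (3 at an unadjusted p under 0.05), and 2 to 3 with each pair left out. Cd96 joined the called members among the brighter genes, with trend and robust eBayes, with the mean of probe sets and without pair 2, and Ctla2a left them without pair 1, 2 or 4. Nkg7, Cd96, Ctla2a and Cd244a kept a negative change under every alternative run for the members' changes. Each was lower in all 5 pairs, so leaving out a pair could not turn its sign. The members were chosen by this contrast, so the kept signs are no separate support. As the covariate itself differed between the groups, that fit estimates the group difference less precisely by construction. Gzmb, Prf1, Cd7 and Il7r were too near background for their changes to be read under any setting.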

Other observations

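Id2, a transcription factor needed by NK and other innate lymphoid cells, was not among the genes named by rule and was looked up after its values were seen. Its brightest probe set read 453.1, 395.9, 235.1, 310.9 and 33.9 with the shRNA, against 705.8, 625.4, 351.7, 465.7 and 198.4 with the vector. It was lower in 5 of 5 pairs, by 1.00 on average on the log2 scale, and did not pass (adjusted p = 0.0909 by limma). Pair 5, at -2.55, made much of that average, and over pairs 1 to 4 the mean was -0.62. A dimmer probe set, with a mean log2 level of 3.67, changed by -0.33, and by 0.07 in pair 5. Another, at 2.09, was in the background range. Like Ctla2a and Cd96, Id2 was lowest in pair 5 in its brightest probe set. On the log2 scale Id2 lay 3.32 below the mean of the other shRNA arrays there and 1.39 below that of the other vector arrays.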
